A study of Homo sapiens with 6 samples.

Results

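The NRF2 antioxidant response was followed through 9 genes chosen by name: NFE2L2, which encodes the transcription factor NRF2; KEAP1, which encodes its inhibitor; and the NRF2 target genes GCLC, GCLM, NQO1, HMOX1, TXNRD1, SRXN1 and SLC7A11. They were read from a table of 61196 identifiers under 48183 gene names, in which each of the 9 genes had 1 identifier. All 9 passed the filter on low counts, with 26497 genes tested in all.

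The bulk RNA-seq compared naive human embryonic stem cells, which resemble the pre-implantation epiblast, with the primed cells from which they had been converted, which resemble the post-implantation epiblast. Every library came from cells carrying the EOS reporter, given as H1-EOS in the sample labels and as H9-EOS in the methods of the study. The 4 naive libraries were VPA naive (induced with valproic acid in Ndiff227 medium with PD0325901 and LIF), AICAR naive 1 and AICAR naive 2 (induced in PXGL medium with AICAR, an activator of AMP-activated protein kinase), and CA-p38 naive (induced in PXGL with doxycycline, which switches on a constitutively active p38 from a piggyBac vector that also carries rtTA and mCherry). The 2 primed libraries were EOS primed and CA-p38 EOS primed, labelled untreated, of the lines without and with that vector; the vector line was a population sorted for mCherry after doxycycline when the line was made. After conversion naive cells were passaged in PXGL (PD0325901, XAV939, Go6983 and LIF) and sorted for CD75 and SUSD2. The study states that AICAR and doxycycline were withdrawn for this expansion. It places the sequenced naive cells many passages after induction, so their values were not taken during treatment with AICAR or doxycycline. The labels describe mouse embryonic fibroblast feeders, but the study also kept AICAR-induced and CA-p38-induced naive cells without feeders. Which of these held for each library is not stated. By contrast, primed cells grew on Matrigel in StemFit AK02N and were dissociated without a sort. State, medium and sort therefore cannot be told apart. The study also reported abnormal karyotypes in naive cells kept long without feeders in PXGL, and their part in these libraries was not tested. The AICAR libraries were taken at neighbouring passages and the labels do not say that libraries came from separate cultures or conversions, so the p-values measure the spread between these libraries only.

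NRF2 is a basic leucine zipper factor that KEAP1, an adaptor of a cullin-based ubiquitin ligase, marks for degradation in unstressed cells. Oxidants and electrophiles modify cysteines of KEAP1, NRF2 then escapes degradation, pairs with a small MAF protein and binds antioxidant response elements near genes for glutathione synthesis, thioredoxin reduction, quinone reduction and heme breakdown. Because this switch acts largely on the protein, the mRNA level of NFE2L2 does not by itself measure NRF2 activity.

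Libraries held 46823699 to 54277064 assigned reads. The labels of state fitted their markers, since 7 of 7 naive markers were higher and 7 of 7 primed markers lower in the naive libraries. The naive markers included SUSD2, for which the naive cells had been sorted, so its rise is not a separate check. Values below are CPM (counts per 1000000 assigned reads) scaled by the trimmed mean of M values (TMM). Genes were tested with edgeR's quasi-likelihood model, p-values were adjusted by the Benjamini-Hochberg method across the 26497 genes, and a gene is said to rise or fall when its adjusted p was under 0.05. In bulk RNA, a change in the share of cells using a gene cannot be told apart from a change per cell.

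In naive cells HMOX1 and SLC7A11 rose, and KEAP1, GCLC, GCLM, NQO1 and SRXN1 fell. NFE2L2 and TXNRD1 did not pass the test. Thus 7 of 9 genes were called, in a comparison that called 53.1% of all genes tested. The 2 genes that rose stand beside 26% of all genes called higher, and the 5 that fell beside 27% called lower. At least 2-fold was reached by 4 of the 9 (HMOX1, GCLM, NQO1 and SRXN1), against 35.3% of all genes. Naive and primed libraries did not overlap for 7 of 9 genes, against 64.9% of all genes. The median log2 fold change of the 9 genes was -0.67, and that of all genes tested was 0.11; without CA-p38 EOS primed these were -0.44 and 0.11.

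Antioxidant response elements were looked for in the promoters of the genes, as the letters TGACNNNGC or, on the opposite strand, GCNNNGTCA, within the 250 bases before each RefSeq start (GRCh38.p14). Of the 9 genes, 7 had an entry, with 10 starts in all; HMOX1 and SLC7A11 had none. A match lay before 4 of the 10 starts, in KEAP1, GCLM and TXNRD1, and before 10.9% of 35116 starts of all genes. The matches are shown because they place the same core letters in a gene of the inhibitor and in genes of the effectors; each line gives the gene's own strand, 5′ to 3′, with the matching 9 bases in capitals.
KEAP1, bases 54 to 46 before the start, chr19:10502807-10502835, minus strand: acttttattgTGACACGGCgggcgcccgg
KEAP1, bases 31 to 23 before the same start, chr19:10502784-10502812, minus strand: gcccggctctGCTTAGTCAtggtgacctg
GCLM, bases 34 to 26 before the start, chr1:93909446-93909474, minus strand: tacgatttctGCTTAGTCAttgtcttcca
TXNRD1, bases 99 to 91 before one start, chr12:104215670-104215698, plus strand: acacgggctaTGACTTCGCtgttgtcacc
TXNRD1, bases 102 to 94 before another start, chr12:104286920-104286948, plus strand: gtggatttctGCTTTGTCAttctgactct
The match of GCLM and the second match of KEAP1 had the same 9 letters. These matches describe the sequence only. Binding was not measured. Sequence outside the 250 bases was not searched, so a gene with no match here may still have an element elsewhere.

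**Figure D1:**
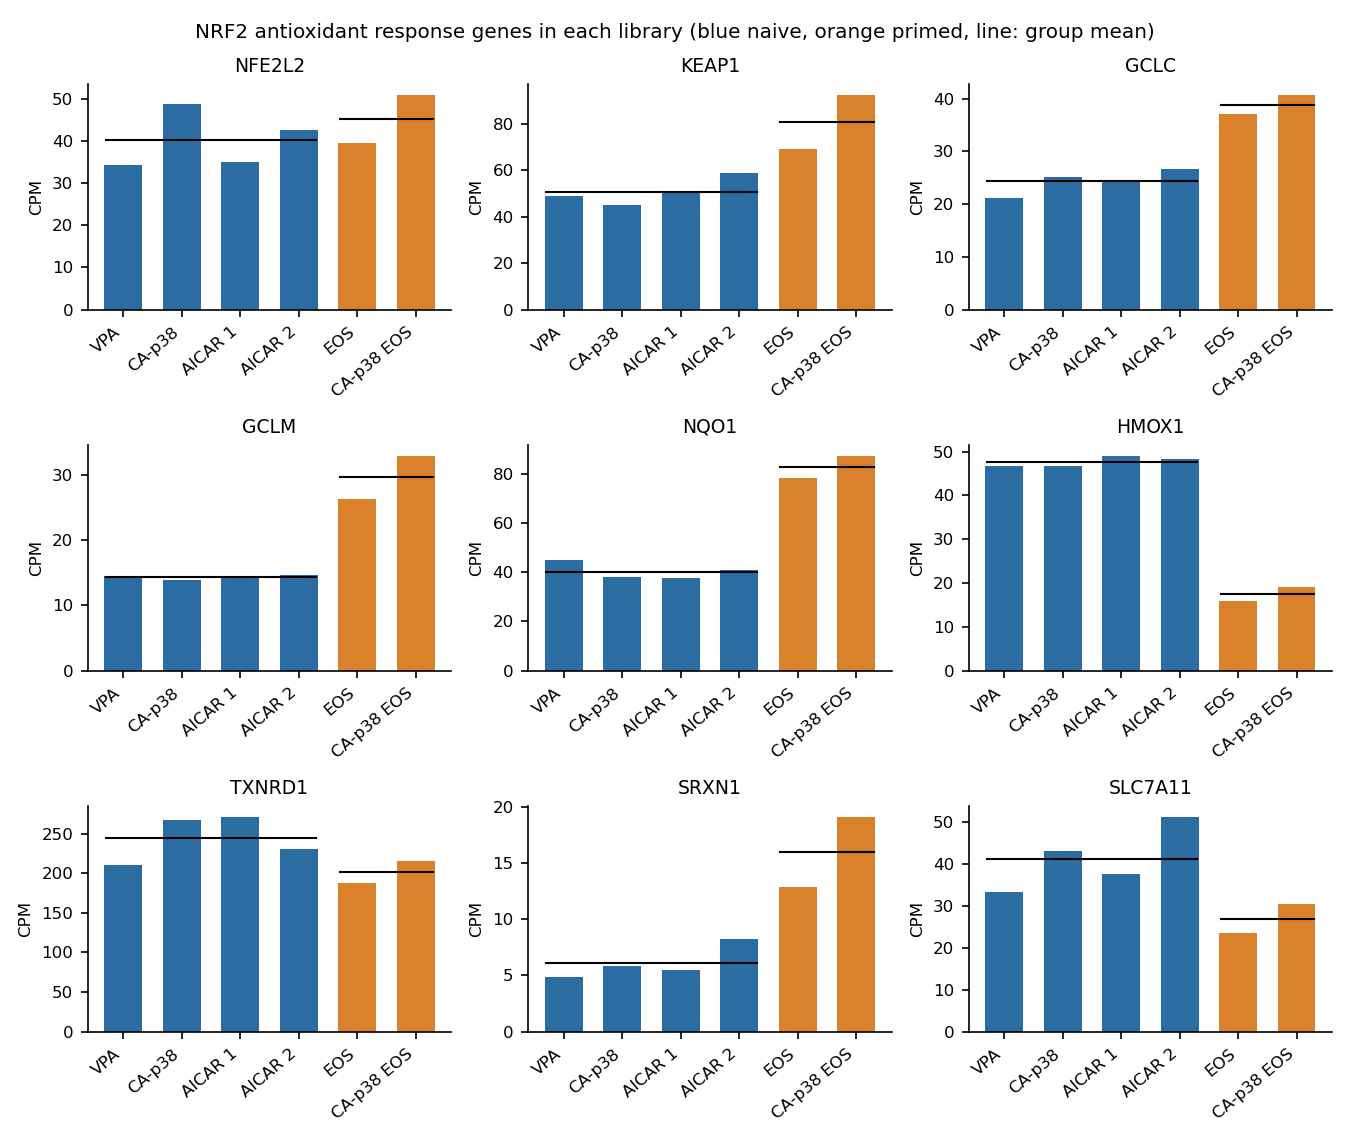
Each panel plots 1 gene, with its TMM-scaled CPM on the vertical axis (from 0) in the 4 naive libraries (blue) and the 2 primed libraries (orange), and a black line at each group's mean. HMOX1 and SLC7A11 stood above, and KEAP1, GCLC, GCLM, NQO1 and SRXN1 below, their primed values in every naive library, while NFE2L2 and TXNRD1 overlapped.

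NFE2L2 (ENSG00000116044, chromosome 2, 177218667 to 177392756, minus strand) was at 34.3 CPM in VPA naive, 48.8 in CA-p38 naive, 34.9 in AICAR naive 1 and 42.7 in AICAR naive 2, and at 39.6 in EOS primed and 50.9 in CA-p38 EOS primed. The groups overlapped, and in each state the library of the CA-p38 line was the highest. The fitted log2 fold change, naive over primed, was -0.17 (SE 0.16, 95% interval -0.53 to 0.18, adjusted p = 0.399), and it was 0.03 without CA-p38 EOS primed. NFE2L2 shares 3509 exon bases with HNRNPA3 on the opposite strand, which had 27686 to 35195 counts in naive and 41437 and 41112 in primed libraries. The library kit kept strand, but whether the counting used it is not stated. The noncoding gene AC019080, on the same strand, shares 2037 exon bases with NFE2L2. It had 24 to 68 counts in naive and 154 and 69 in primed libraries. The part of reads from either gene in the NFE2L2 values was not tested.

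KEAP1 (ENSG00000079999, chromosome 19, 10486125 to 10503558, minus strand) was at 49.1, 45.0, 50.1 and 58.7 CPM in VPA naive, CA-p38 naive, AICAR naive 1 and AICAR naive 2, and at 69.1 and 92.3 in EOS primed and CA-p38 EOS primed. All 4 naive libraries lay below both primed ones. The mean was 50.7 ± 5.75 (SD, n = 4) in naive and 80.7 ± 16.4 (SD, n = 2) in primed cells, a log2 fold change of -0.67 (SE 0.14, adjusted p = 0.00131). The size rested on the higher primed library, since without CA-p38 EOS primed it was -0.44 (adjusted p = 0.0463).

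The NFE2L2 to KEAP1 ratio of counts within a library does not depend on scaling. It was 0.699 in VPA naive, 1.08 in CA-p38 naive, 0.697 in AICAR naive 1 and 0.727 in AICAR naive 2, and 0.573 and 0.551 in EOS primed and CA-p38 EOS primed. Every naive value was above both primed values, and CA-p38 naive stood apart from the other three. The mean difference was 0.49 on the log2 scale, 1.40-fold, and a two-sided exact permutation test gave p = 0.133, with 0.0667 the smallest p that 4 against 2 libraries allow.

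Genes that regulate NRF2 or compete with it were followed as a list of 12. In naive cells 7 were lower, 1 was higher and 4 did not pass the test, with a median log2 fold change of -0.72. Among all genes tested 27% were lower and 26% higher, shares that also stand beside the counts of each list below. NFE2L3, which encodes a relative of NRF2, was at 49.2 to 63.2 CPM in naive and 167 and 182 in primed libraries (-1.65, adjusted p = 7.86e-08). MAFF, a small MAF partner, fell from 10.2 and 8.20 CPM to between 2.96 and 3.60 (-1.48, adjusted p = 8.57e-05). BACH1, a repressor that occupies antioxidant response elements and is known above all for holding HMOX1 down, was at 19.6 to 27.9 CPM in naive and 45.1 and 48.1 in primed libraries (-1.02, adjusted p = 9.51e-05). DPP3, a protein that binds KEAP1, fell by 0.92 on the log2 scale (adjusted p = 1.45e-05). The one that rose, noted after its value was seen, was MAFK, another small MAF partner (0.51, adjusted p = 0.0474, close to the threshold).

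GCLC and GCLM encode the catalytic and modifier subunits of glutamate-cysteine ligase, the rate-limiting enzyme of glutathione synthesis. GCLC (ENSG00000001084, chromosome 6, 53497341 to 53616970, minus strand) was at 21.3, 25.2, 24.4 and 26.7 CPM in VPA naive, CA-p38 naive, AICAR naive 1 and AICAR naive 2, and at 37.1 and 40.7 in EOS primed and CA-p38 EOS primed. No naive library reached a primed one. The fitted change was -0.67 on the log2 scale (SE 0.13, adjusted p = 0.000867). The noncoding gene AL033397, on the same strand, shares 529 exon bases with GCLC. It had 26 to 73 counts in naive and 60 and 48 in primed libraries, and its part in the GCLC values was not tested.

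GCLM (ENSG00000023909, chromosome 1, 93885199 to 93909456, minus strand) was at 14.5, 14.0, 14.6 and 14.6 CPM in the same order of naive libraries, and at 26.4 and 32.9 in EOS primed and CA-p38 EOS primed. The naive libraries were nearly level, with a highest value 1.05 times the lowest, where the median gene of at least 5 CPM had a ratio of 1.27. At 705 to 792 counts a library, differences this small are within counting error, so they do not show that GCLM is unusually constant. The log2 fold change was -1.04 (SE 0.14, adjusted p = 4.25e-05).

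The GCLC to GCLM ratio of counts was 1.47 in VPA naive, 1.80 in CA-p38 naive, 1.67 in AICAR naive 1 and 1.83 in AICAR naive 2. It was 1.40 in EOS primed and 1.24 in CA-p38 EOS primed, so that the groups did not overlap but VPA naive lay close to EOS primed. The difference was 0.36 on the log2 scale, 1.28-fold, with an exact two-sided permutation p of 0.0667, the smallest this design can give.

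**Figure D2:**
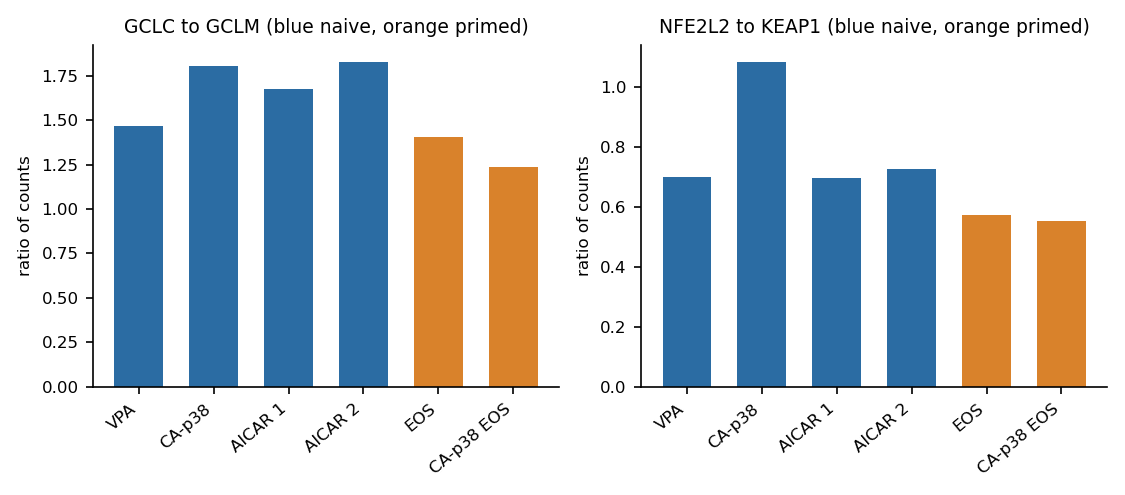
Bars give the ratio of counts within each library (vertical axes from 0) for GCLC to GCLM and NFE2L2 to KEAP1, naive in blue and primed in orange. For both ratios each naive bar stood above either primed bar, and the NFE2L2 to KEAP1 ratio of CA-p38 naive, 1.08, was the only one above 1.

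SLC7A11 encodes the cystine transporter that, with the heavy chain from SLC3A2, brings in the cysteine for glutathione. It (ENSG00000151012, chromosome 4, 138164097 to 138242349, minus strand) was at 33.4 CPM in VPA naive, 43.1 in CA-p38 naive, 37.5 in AICAR naive 1 and 51.2 in AICAR naive 2, against 23.5 in EOS primed and 30.4 in CA-p38 EOS primed. The groups did not overlap, although VPA naive and CA-p38 EOS primed lay close. The log2 fold change was 0.62 (SE 0.18, adjusted p = 0.0109), and the call was lost without EOS primed (0.43, adjusted p = 0.143). The antisense gene SLC7A11-AS1, which shares 865 exon bases with it, had 155 to 268 counts in naive and 45 and 40 in primed libraries; its part in the SLC7A11 counts was not tested.

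SLC7A11 is also a target of ATF4, the factor of the amino acid response, and 10 genes of that response were followed. Of them 6 were higher, 1 lower and 3 did not pass the test, with a median log2 fold change of 0.64. DDIT3, a stress-induced transcription factor, was at 26.1 to 34.9 CPM in naive and 2.24 and 1.98 in primed libraries (3.77, adjusted p = 7.67e-09). TRIB3, a pseudokinase that feeds back on ATF4, rose by 3.21 (adjusted p = 4.93e-09), and SESN2, a stress-induced regulator of mTORC1, by 2.57 (adjusted p = 1.39e-08), both on the log2 scale. VLDLR, a lipoprotein receptor, fell by 2.40 on that scale (adjusted p = 9.31e-07).

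Genes that make, recycle and use glutathione numbered 15, of which 6 were higher, 5 lower and 4 did not pass the test (median 0.13). GPX2, a glutathione peroxidase, was at 41.3 to 59.1 CPM in naive and 0.283 and 1.21 in primed libraries (6.12, adjusted p = 3.57e-08). GSR, which regenerates reduced glutathione with NADPH, was at 12.9 to 21.5 CPM against 88.0 and 91.9 (-2.48, adjusted p = 7.52e-08). The enzymes that break glutathione down moved in opposite directions, CHAC2 by -2.16 (adjusted p = 4.66e-06) and CHAC1 by 1.61 (adjusted p = 6.39e-06). Of 14 tested glutathione transferases, which couple glutathione to electrophiles, 7 fell, 3 rose and 4 did not pass (median -0.31). The microsomal forms MGST1 (-3.39, adjusted p = 4.05e-08) and MGST3 (-1.69, adjusted p = 3.79e-06) fell, as did GSTM1 (-2.05, adjusted p = 1.19e-05), while GSTM4 rose (0.98, adjusted p = 0.000152). Reads of the near-identical GSTM genes may have been divided unevenly among them.

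**Figure D3:**
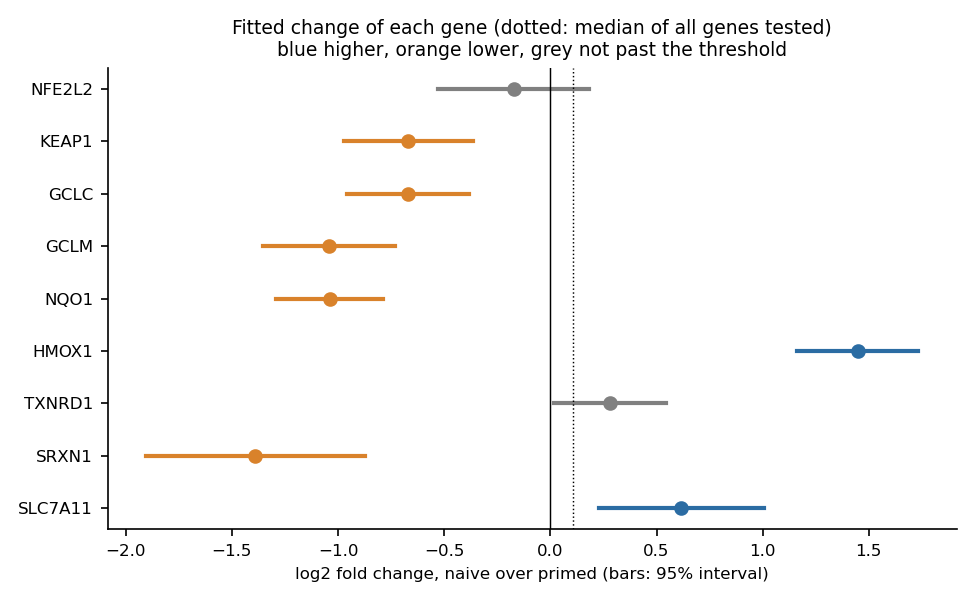
Points give the fitted log2 fold change of each gene, naive over primed, on the horizontal axis, with its 95% interval as a bar; blue marks genes called higher, orange lower and grey those that did not pass the test. HMOX1 at 1.45 and SRXN1 at -1.39 lay at the ends, and the dotted line marks the median of all genes tested, 0.11.

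NQO1 (ENSG00000181019, chromosome 16, 69706996 to 69726668, minus strand) encodes a quinone reductase that uses NADPH or NADH and is a classical readout of NRF2. It was at 44.8, 37.9, 37.7 and 40.8 CPM in VPA naive, CA-p38 naive, AICAR naive 1 and AICAR naive 2, and at 78.5 and 87.2 in EOS primed and CA-p38 EOS primed. The mean fell from 82.8 ± 6.12 (SD, n = 2) to 40.3 ± 3.32 (SD, n = 4), with a wide gap between the groups. The log2 fold change was -1.04 (SE 0.12, adjusted p = 6.52e-06).

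HMOX1 (ENSG00000100292, chromosome 22, 35380361 to 35394214, plus strand) encodes the inducible heme oxygenase, which opens heme to biliverdin, iron and carbon monoxide. It moved the other way, with 46.6, 46.7, 48.9 and 48.3 CPM in the same order of naive libraries and 15.9 and 19.0 in EOS primed and CA-p38 EOS primed. The naive mean was 47.6 ± 1.18 (SD, n = 4) and the primed mean 17.5 ± 2.19 (SD, n = 2). The naive libraries differed among themselves by 1.05 times and lay far above both primed ones. This was a log2 fold change of 1.45 (SE 0.13, adjusted p = 1.08e-06).

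Of 6 genes in the heme turnover list, 5 fell and 1 rose (median -1.09). The one that rose, noted after its value was seen, was HMOX2, which encodes the constitutive heme oxygenase (0.57, adjusted p = 0.000895). BLVRA, which reduces biliverdin, the product of heme oxygenase, was at 0.773 to 2.64 CPM in naive and 34.5 and 34.9 in primed libraries (-4.51, adjusted p = 1.36e-07). The heme exporter FLVCR1 (-1.32, adjusted p = 2.28e-06), the heme transporter SLC48A1 (-1.15, adjusted p = 0.000763) and ALAS1, the first enzyme of heme synthesis (-1.03, adjusted p = 1.67e-05), fell as well.

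HMOX1 also responds to heat and acute stress, and the naive cells had been sorted while the primed cells had not. Of 12 immediate early and heat shock genes 6 were higher, 2 lower and 4 did not pass the test (median 0.40). FOS was at 27.6 to 39.6 CPM in naive and 5.46 and 7.26 in primed libraries (2.40, adjusted p = 7.54e-07). JUNB (1.89, adjusted p = 3.06e-06) and the heat shock protein gene HSPA1A (1.30, adjusted p = 1.37e-06), which has a near-identical copy, were higher too, and IER3 was lower (-4.11, adjusted p = 1.52e-10). The other gene that was lower, noted after its value was seen, was EGR1 (-3.09, adjusted p = 6.06e-07), which averaged under 5 CPM. JUN, DUSP1, IER2 and HSPH1 did not pass the test. The part of the sort in the HMOX1 values was not tested.

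TXNRD1 (ENSG00000198431, chromosome 12, 104215779 to 104350307, plus strand) encodes the cytosolic thioredoxin reductase, a selenoprotein. It was at 209.8 CPM in VPA naive, 267.5 in CA-p38 naive, 270.7 in AICAR naive 1 and 230.4 in AICAR naive 2, and at 187.3 in EOS primed and 215.4 in CA-p38 EOS primed. VPA naive lay below CA-p38 EOS primed, so the groups overlapped. The log2 fold change of 0.28 (SE 0.12, adjusted p = 0.0707) did not pass the test, but with the parental line as a block it was 0.33 and did (adjusted p = 0.0345).

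SRXN1 (ENSG00000271303, chromosome 20, 646615 to 653200, minus strand) encodes sulfiredoxin, which repairs over-oxidized peroxiredoxins. It had the lowest CPM of the 9 in every library but CA-p38 EOS primed, at 4.82, 5.88, 5.50 and 8.24 in VPA naive, CA-p38 naive, AICAR naive 1 and AICAR naive 2, and at 12.9 and 19.1 in EOS primed and CA-p38 EOS primed. Both groups were spread, yet no naive library reached a primed one. Its log2 fold change was -1.39 (SE 0.24, adjusted p = 0.000279). A second identifier shares 2292 exon bases with it on the same strand (171 to 290 counts in naive, 405 and 510 in primed libraries), and with both summed the value was -1.29 (adjusted p = 0.000199).

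Of 15 other thioredoxin, glutaredoxin and peroxiredoxin genes, 5 rose, 7 fell and 3 did not pass the test (median -0.23). PRDX1, an abundant peroxiredoxin that removes hydrogen peroxide, was at 2074 to 2594 CPM in naive and 598.5 and 735.5 in primed libraries (1.76, adjusted p = 9.62e-08). GLRX (-2.82, adjusted p = 3.30e-07) and GLRX2 (-2.25, adjusted p = 1.18e-06), glutaredoxins of the cytosol and mostly of the mitochondrion, fell, and so did TXNIP, which binds and inhibits thioredoxin (-1.62, adjusted p = 4.97e-05). Of the superoxide dismutases and catalase, 1 of 4 genes rose, 1 fell and 2 did not pass (median 0.16). CAT, which encodes catalase, was at 22.1 to 28.8 CPM in naive libraries and 0.485 and 0.0205 in primed ones (6.69, adjusted p = 1.45e-07).

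NADPH, which feeds both reductase systems, comes in part from 6 listed enzymes, of which 1 rose, 3 fell and 2 did not pass the test (median -0.26). ME1, the cytosolic malic enzyme, was at 0.663 to 1.19 CPM in naive and 23.1 and 20.1 in primed libraries (-4.53, adjusted p = 7.77e-09). In the non-oxidative pentose phosphate pathway TALDO1 rose (1.03, adjusted p = 1.41e-06) and TKT fell (-0.74, adjusted p = 7.20e-06), and IDH1 also fell (-0.45, adjusted p = 0.000782). A list of 22 further NRF2 targets had 20 genes tested, of which 5 rose, 11 fell and 4 did not pass (median -0.70). CBR1, a carbonyl reductase, was at 5.01 to 6.91 CPM in naive and 37.5 and 37.7 in primed libraries (-2.75, adjusted p = 2.00e-08). PIR (-2.34, adjusted p = 4.79e-09), AKR1B1, an aldo-keto reductase (-1.83, adjusted p = 4.01e-08), and UGDH, which makes UDP-glucuronate (-1.77, adjusted p = 7.60e-08), fell with it. The 5 that rose, noted after their values were seen, were ABCC2 (2.98), CBR3 (1.55), ABCC3 (1.26), BLVRB (1.14) and NQO2 (0.68). Of these, ABCC2, CBR3 and ABCC3 averaged under 5 CPM. Across the 10 lists, 35 of 114 tested genes were higher and 49 lower, beside 26% higher and 27% lower among all genes tested.

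**Figure D4:**
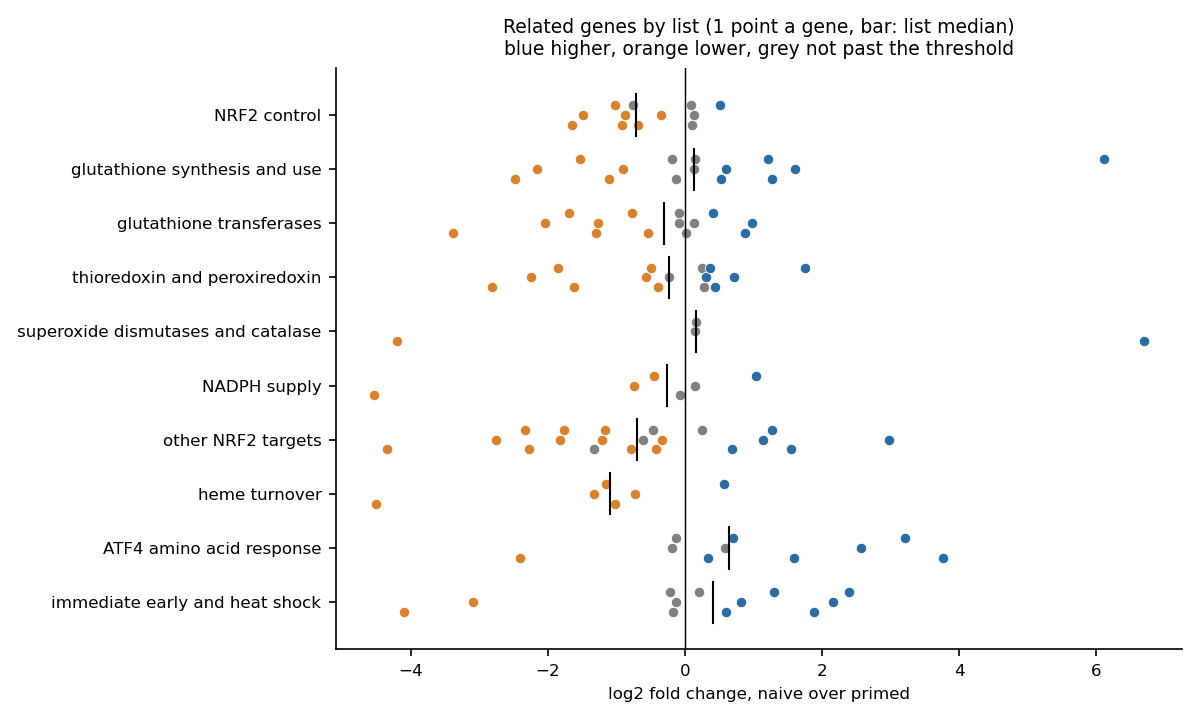
Each point is 1 tested gene of a list named on the vertical axis, placed by its log2 fold change, naive over primed (horizontal axis), with the list's median as a black bar; blue is higher, orange lower and grey not past the test. The medians ran from -1.09 for heme turnover to 0.64 for the ATF4 amino acid response, and most lists held genes on both sides of 0.

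Divided by the length of the canonical GENCODE transcript, so that genes can be set side by side, levels in naive cells ran from TXNRD1 (63.4 CPM per kilobase) and HMOX1 (30.7) through KEAP1 (19.8), NFE2L2 (16.4), NQO1 (16.0) and GCLC (6.44) to SLC7A11 (4.28), GCLM (2.95) and SRXN1 (2.42). KEAP1, NFE2L2 and NQO1 overlapped across naive libraries, as did GCLM and SRXN1. In primed cells the order was TXNRD1 (52.2), NQO1 (32.9), KEAP1 (31.5), NFE2L2 (18.5), HMOX1 (11.2), GCLC (10.3), SRXN1 (6.33), GCLM (6.08) and SLC7A11 (2.79). There NQO1 overlapped with KEAP1, HMOX1 with GCLC, and SRXN1 with GCLM. HMOX1 was ranked 2 of 9 in naive and 5 in primed cells, and NQO1 ranked 5 and 2. These levels assume that the canonical transcript is the one expressed.

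Each induction was then set beside the primed library of its own line, EOS primed for VPA and AICAR and CA-p38 EOS primed for CA-p38. These folds have no replicate check, those of VPA and AICAR share 1 primed library, and their intervals (exact binomial, 95%) cover counting error only. HMOX1 was 2.93-fold higher in VPA naive (2.70 to 3.18), 2.45-fold in CA-p38 naive (2.27 to 2.65), 3.07-fold in AICAR naive 1 (2.84 to 3.33) and 3.03-fold in AICAR naive 2 (2.80 to 3.29). KEAP1 was at 0.710, 0.488, 0.725 and 0.850 of its parental level in the same order, so that CA-p38 naive was the furthest below its own reference. SRXN1 was at 0.373, 0.309, 0.427 and 0.638, with AICAR naive 2 the nearest to its parental level. SLC7A11 was 1.42, 1.42, 1.60 and 2.18 times its parental level.

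GCLC lay between 0.573 and 0.722, GCLM between 0.424 and 0.554, NQO1 between 0.435 and 0.571, and TXNRD1 between 1.12 and 1.45 of the parental level. NFE2L2 ran from 0.866 in VPA naive to 1.08 in AICAR naive 2. The median log2 fold of the 9 genes was -0.49 in VPA naive, -0.69 in CA-p38 naive, -0.46 in AICAR naive 1 and -0.24 in AICAR naive 2, while that of all genes lay between 0.03 and 0.06.

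**Figure D5:**
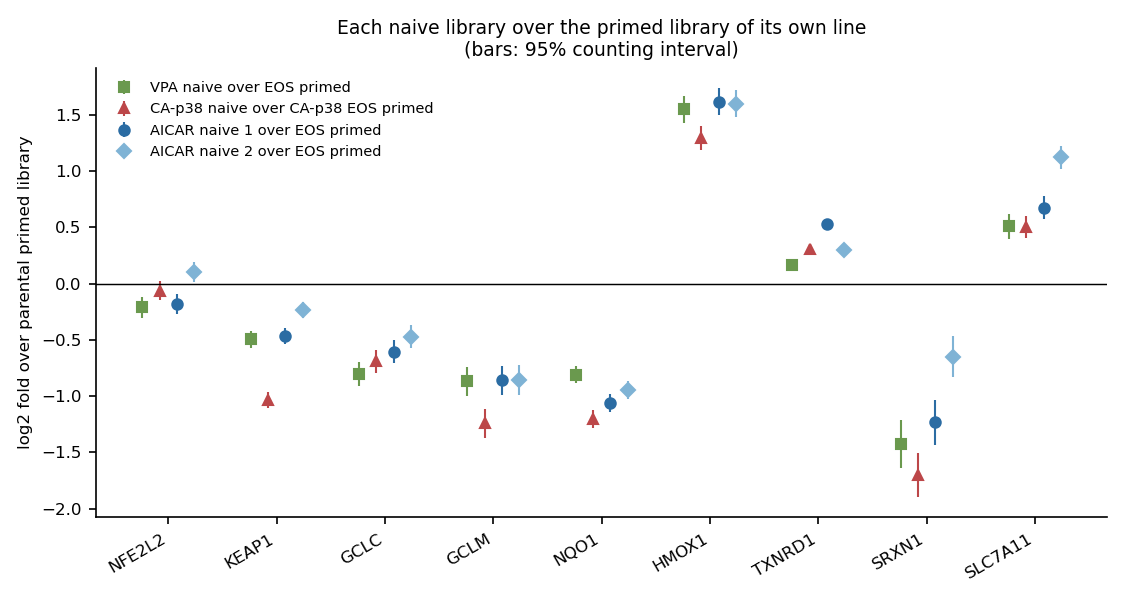
Points give the log2 fold of each naive library over the primed library of its own line (vertical axis) for each gene (horizontal axis), with 95% counting intervals as bars. HMOX1, TXNRD1 and SLC7A11 lay above 0 and KEAP1, GCLC, GCLM, NQO1 and SRXN1 below 0 in all 4 libraries, and CA-p38 naive lay lowest for KEAP1, GCLM, NQO1 and SRXN1; against the mean of both primed libraries SRXN1 was lowest in VPA naive and NQO1 in AICAR naive 1.

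The primed libraries themselves differed. All 9 genes were higher in CA-p38 EOS primed than in EOS primed, from 1.10 times for GCLC to 1.48 times for SRXN1, whereas 62.7% of 12604 genes with at least 5 CPM were higher there, with a median ratio of 1.05. With 1 library of each line this has no replicate check. Among naive libraries the coefficient of variation of the 9 genes ran from 2.14% for GCLM to 24.3% for SRXN1, around a median of 10.7% over all genes of at least 5 CPM. The value for GCLM is within counting error. AICAR naive 2 was 1.50 times AICAR naive 1 for SRXN1, 1.36 times for SLC7A11 and 0.851 times for TXNRD1.

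Other cell types were checked by markers. Summed over 8 fibroblast markers the level was 39.0 to 80.8 CPM in naive and 192.4 and 209.7 in primed libraries (1 marker higher, 4 lower, 3 not past the test), with PDGFRB at 0 to 0.181 CPM in naive and 17.2 and 16.3 in primed libraries. TWIST2, the marker that was higher, was at 5.32 to 9.76 CPM in naive and 0.182 and 0.982 in primed libraries. Neural markers summed to 243.5 to 289.2 CPM against 553.8 and 652.6 (1 of 6 higher, 3 lower). Most of the primed neural sum came from NES alone, at 426.7 and 506.8 CPM. These sums thus rest on few genes and do not count cells. Endoderm and mesoderm markers summed to 21.4 to 29.5 CPM, against 9.68 in EOS primed and 36.7 in CA-p38 EOS primed (3 of 7 higher, 2 lower). The primed libraries thus differed in these markers, above all in FOXA2, at 5.36 CPM in EOS primed and 21.4 in CA-p38 EOS primed. HAND1 went the other way (0.243 and 0). The part of this difference in the primed values of the 9 genes was not tested. Mitochondrially encoded transcripts took 3.08% to 3.64% of counts in naive and 2.85% and 1.82% in primed libraries. Their part in the values of the 9 genes was not tested.

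By the distance between centred log2 profiles over the 6 libraries, the nearest gene was ERCC6 for NFE2L2 (0.12), MTHFS for KEAP1 (0.14), TMEM268 for GCLC (0.08), ALG8 for GCLM (0.05), SMARCE1 for NQO1 (0.13), RUFY1 for HMOX1 (0.12), QTRT1 for TXNRD1 (0.14), TMEM185B for SRXN1 (0.24) and LINC00504 for SLC7A11 (0.14). The next ones were TANC2 for NFE2L2 and, for the other genes in the same order, PITPNA-AS1 and PHF23, ALG10B and TMED7, PSMC1 and RTN4, ING5 and ARHGEF2, SYNGR2 and AC256236, JAM3 and PATL1, ZC2HC1A and ANK2, and FAM241A and KCNQ1OT1. Neighbours were sought among genes averaging at least 5 CPM, and none of the 9 genes was allowed as a neighbour of another.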

How the data were processed

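The authors trimmed reads with cutadapt 1.15 through Trim Galore 0.4.4, mapped them with Bowtie2 to Ensembl GRCh38 release 100 cDNA and ncRNA sequences, kept reads with a mapping quality of at least 1 and deposited counts per Ensembl identifier, with no normalization. Reads shared by isoforms or copies may be split or lost by this, and whether strand was used is not stated. Libraries were poly(A) selected and made with a stranded SMART-Seq kit. Another 23 columns, from other studies, and 26 spike-in rows in the same table were not used.

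From these counts, identifiers sharing a name were summed (6932 names have at least 2). Genes were filtered with filterByExpr by state, scaled by TMM and tested as 4 naive against 2 primed libraries with edgeR 4.0.16 in R 4.3.3 (common dispersion 0.0563). The test was first tried on simulated data. Each gene's level per kilobase used the canonical transcript of GENCODE. Gene positions and shared exon bases came from the same GENCODE release, which is later than the Ensembl release 100 used for the counts. Shared exon bases may therefore differ in the transcripts that were counted. Ratios and parental folds used a prior count of 0.5, and profiles a prior count of 2. A count of 3, taken as the floor, is 0.0553 to 0.0641 CPM. Alternatives were other scalings, DESeq2 1.42.0, limma-voom (limma 3.58.1), other filters, identifiers apart, a parental-line block, both AICAR libraries merged, and omission of 1 library at a time.

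The 9 genes and all lists were chosen with earlier results of these data known. From each list, up to 4 genes past the test and averaging 5 CPM or more, with the largest absolute log2 fold change were named, together with the 3 nearest profiles of each of the 9 genes, of which 1 is not reported here. Of 117 listed genes, GSTA1, AKR1B10 and UGT1A6 were not tested for low counts. Figures were drawn with matplotlib.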

Additional observations from a re-analysis of the deposited data

Results flagged for a closer look

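The NFE2L2 to KEAP1 ratio of counts in CA-p38 naive, 1.08, stood apart from the other naive libraries, which lay between 0.697 and 0.727. The gap was 0.906 of the whole range of the 4 naive libraries on the log2 scale, past Dixon's 95% limit, a limit that chance passes in about 1 in 20 groups. The same check was made on 11 sets of naive values (9 genes and 2 ratios), and 1 passed. Without CA-p38 naive, the difference between naive and primed libraries was 0.33 on the log2 scale.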

How the results depend on the processing

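KEAP1, GCLC, GCLM, NQO1 and SRXN1 were called lower and HMOX1 higher under each alternative run, with 5 genes called lower throughout. With 1 library left out, the number called higher ran from 1 to 3; a lone primed library is then assumed to vary like the others. Over those, NFE2L2 ran from -0.354 to 0.028 (adjusted p = 0.932 at the reversed value, without CA-p38 EOS primed), KEAP1 from -0.88 to -0.44, SLC7A11 from 0.43 to 0.82 and TXNRD1 from 0.17 to 0.39 (0.33, adjusted p = 0.026, without VPA naive). TXNRD1 also passed with library totals (0.38, adjusted p = 0.0131), with at least 10 counts in every library (0.32, adjusted p = 0.0336) and with the parental line as a replicate block (0.33, adjusted p = 0.0345), which changed no other call among the 9 genes; the cause was not tested. The related lists held 30 to 38 genes called higher and 44 to 50 lower. Over the genes tested, the centre of the log2 fold changes lay at 0.11 under TMM, at 0.20 under library totals and at 0.06 under median-ratio factors. Against the average of the primed libraries, the median parental fold of the 9 genes moved to -0.70 in VPA naive, -0.67 in AICAR naive 1 and -0.44 in AICAR naive 2 (log2), with CA-p38 naive at -0.62 and so no longer lowest, the lowest SRXN1 value was then that of VPA naive (-1.70, CA-p38 naive -1.42), the lowest NQO1 value that of AICAR naive 1 (-1.14, CA-p38 naive -1.12), 28 of 36 single values moved past their counting interval and NFE2L2 in AICAR naive 2 reversed to -0.074; library totals moved 16 of 36 and a prior count of 5 none. With 2 primed libraries, 1 of each line, line and library cannot be told apart.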

Other observations

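As a root mean square of log2 differences, the 9 genes differed by 0.185 to 0.378 between pairs of naive libraries. The other genes, limited to those averaging at least 5 CPM, differed by 0.314 to 0.381. Between naive and primed libraries the values were 0.832 to 1.05 for the 9 genes and 1.78 to 1.86 for the other genes, and between the primed libraries 0.334 and 0.348.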
